A study of Homo sapiens with 5 samples.

Results

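The SOCS family comprises the 8 genes *CISH* and *SOCS1* to *SOCS7*, which encode feedback inhibitors of cytokine signaling. Its members were taken by symbol from the 27328 Ensembl genes of a count table of TF-1 cells, a human AML cell line that depends on GM-CSF and was grown with it. All 8 were found, and 7 of them passed the filter on low counts that left 14391 genes for testing. RNA-seq was performed on 5 libraries, each from a pool of 4 single-cell clones carrying Cas9 and an sgRNA. Controls were the sgCtrl pools 1 and 2 (n = 2), with an sgRNA against renilla luciferase, called control pools 1 and 2 here. The *MTSS1* knockout pools (n = 3) were made with 1 of the sgRNAs sgMTSS1_1, sgMTSS1_2, or sgMTSS1_3 each and are called knockout pools 1, 2, and 3, and values are given in that order. Replicates are therefore pools of clones, and those of the knockout differ in their sgRNA as well. The authors left out sgCtrl pool 3 and the sgMTSS1_4 pool after an outlier test, and these were not analysed here. The comparison of knockout and control pools asks how the loss of *MTSS1* alters the expression of these genes.

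A cytokine such as GM-CSF brings its receptor chains together, the JAK kinases bound to them phosphorylate the receptor and STAT5, and STAT5 then induces genes that include *CISH*, *SOCS1*, *SOCS2*, and *SOCS3*. Every SOCS protein has an SH2 domain, which binds phosphorylated tyrosines on receptors or kinases, and a SOCS box, which recruits elongins B and C and cullin 5 to form a ubiquitin ligase. SOCS1 and SOCS3 also carry a short region that inhibits JAK catalytic activity. SOCS4 to SOCS7 have long N-terminal regions and are known mainly from work on receptor tyrosine kinases and the insulin pathway. Since the inhibitors are induced by the pathway they restrain, their mRNA levels are often read as a record of cytokine signaling.

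The *CISH* promoter is the classical example of this feedback and is shown because it carries several copies of the letters that STAT factors recognize, TTCNNNGAA, a motif that reads alike on both strands. The sequence holds the 250 bases before the annotated start, chr3:50611775-50612024 on the minus strand of GRCh38.p14, as given by RefSeq, and the capitals mark the 4 matches.
CISH: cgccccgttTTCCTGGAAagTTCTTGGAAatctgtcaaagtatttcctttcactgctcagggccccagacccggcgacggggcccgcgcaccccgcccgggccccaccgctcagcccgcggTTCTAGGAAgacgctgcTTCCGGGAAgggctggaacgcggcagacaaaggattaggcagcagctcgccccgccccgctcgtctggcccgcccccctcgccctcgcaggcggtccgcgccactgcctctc
The matches TTCCTGGAA and TTCTTGGAA begin 241 and 230 bases before the start, and TTCTAGGAA and TTCCGGGAA begin 129 and 112 bases before it. Of the 35116 promoter windows of 300 bases in the same table, 7.66% held at least 1 match, and 0.0199%, or 7 windows, held at least 4. The table had an entry for 5 of the 8 members, and the windows of *SOCS1*, *SOCS3*, *SOCS4*, and *SOCS6* held 0 matches, which says only that these letters are not in those windows. *SOCS2*, *SOCS5*, and *SOCS7* had no entry. The data measure mRNA and not the binding of a factor to these sites.

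The libraries held between 2849979 and 8854899 counts, and every knockout library was deeper than both control libraries. Raw counts therefore mix depth with condition, and levels are given as CPM, which relate a gene's count to the TMM-normalized size of its library. A floor of 3 counts corresponded to between 0.389 and 0.938 CPM. Mitochondrially encoded genes took 13.9% of counts in control pool 1, the smallest library, and 8.63% in control pool 2. They took 7.44%, 7.37%, and 6.71% in the knockout pools, and the part of this in the results was not tested. Reads came from the 3′ end of mRNAs, so that a gene's count does not grow with its length. Other differences between genes, such as base composition and unique mapping of reads, are not corrected in CPM. Levels of different genes therefore compare only roughly. All 9 markers expected in TF-1 cells, *GATA1*, *TAL1*, *CD34*, and *KIT* among them, passed the filter. Of 5 lymphoid markers 3 were in the table and 2 were tested, and of 7 stromal and epithelial markers 6 were in the table and 2, *KRT8* and *KRT18*, were tested, with 0 called in either list. The lymphoid marker *CD79A* was at 4.32 CPM in control and 0.706 CPM in knockout (adjusted p = 0.0506), and its part in the SOCS results was not tested. *MTSS1* mRNA was 204 and 87.9 CPM in control and 104, 139, and 49.9 CPM in knockout pools, so that the groups overlapped. Its log2-fold change was −0.58 (adjusted p = 0.494) and became 0.16 when control pool 1 was left out. Small insertions or deletions made by Cas9 need not lower an mRNA, and these counts do not check the labels. The paper reports that loss of the MTSS1 protein was shown by immunoblot in the clones that were pooled. In bulk RNA, fewer cells that express a gene and less of its mRNA per cell cannot be told apart.

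The family was expressed at moderate levels in control cells, with *SOCS1* and *SOCS3* at the limit of detection. *SOCS2* had the highest level (35.2 ± 4.2 CPM, mean ± SD, n = 2), and its pools lay above those of every other member. *CISH* (25.3 ± 3.03), *SOCS6* (22.9 ± 2.94), and *SOCS4* (22.1 ± 7.22) followed, and their ranges overlapped from each to the next. *SOCS7* (10.8 ± 2.01) and *SOCS5* (10.1 ± 0.342) came after these, again with overlapping ranges. *SOCS3* and *SOCS1* had means of 0.938 and 0.469 CPM, with 0 counts of either in control pool 2. The median tested gene had 15.8 CPM over all libraries, and *CISH*, at 35.7 CPM, stood at the 68.1th percentile of tested genes, whereas *SOCS1* stood at the 1.83th.

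In knockout pools the order was different. *CISH* had the highest level (42.7 ± 7.0 CPM, mean ± SD, n = 3), and none of its pools overlapped those of the next member. *SOCS7* (25.2 ± 3.40), *SOCS2* (23.0 ± 3.23), and *SOCS4* (20.7 ± 2.94) came next, with overlapping ranges. *SOCS6* (12.5 ± 1.75) lay below them and above *SOCS5* (7.43 ± 2.72). *SOCS1* (2.21 ± 0.994) and *SOCS3* (0.868 ± 0.603) were again the lowest. *SOCS7* thus stood below *SOCS6* in control and above it in knockout pools, without overlap in either group, and *SOCS2* stood above *CISH* in control and below it in knockout pools.

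**Figure D1:**
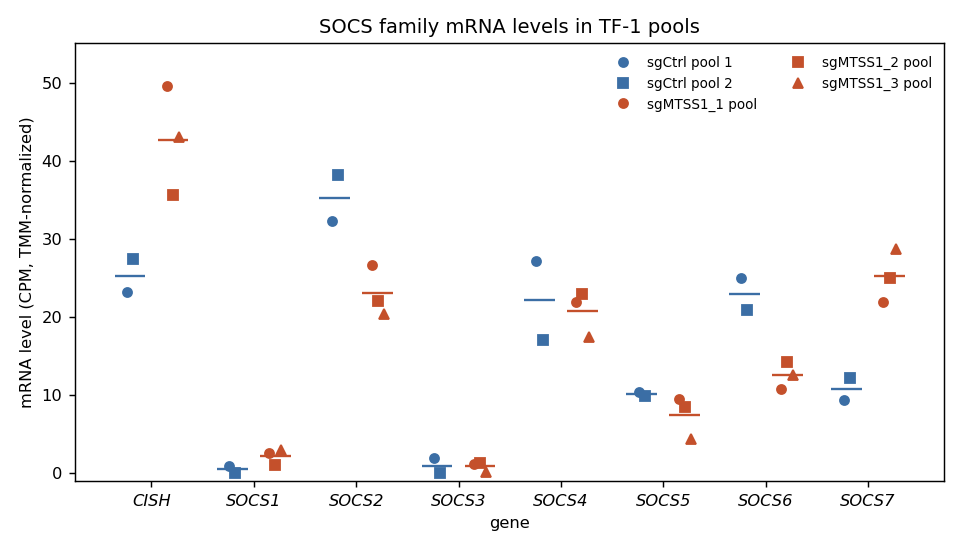
mRNA level of each SOCS family gene (vertical axis, TMM-normalized CPM on a linear scale) in the 2 sgCtrl pools (blue) and the 3 sgMTSS1 pools (red), with a horizontal line at each group's mean. For *CISH*, *SOCS1*, and *SOCS7* the 3 knockout points lie above both control points, for *SOCS2*, *SOCS5*, and *SOCS6* they lie below both, and for *SOCS3* and *SOCS4* the groups overlap.

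None of the 7 tested members was differentially expressed by edgeR's quasi-likelihood test, with the thresholds of a Benjamini-Hochberg adjusted p under 0.05 and a change of more than 1 on the log2 scale. Of all tested genes 5.18% were called, 4.17% as higher and 1.01% as lower in knockout. An unadjusted p under 0.05 was found for 3 members, *CISH*, *SOCS6*, and *SOCS7*, and for 23.3% of all tested genes. DESeq2 called 1 member, *SOCS7*, and limma-voom called 0. Every knockout pool lay above both control pools for 3 of the 7, against 22.2% of all tested genes, and below both for 3 of the 7, against 19.2%. One of those 7, *SOCS1*, passed the filter through its knockout counts, so that these counts are given as a description and support no statement on the family as a whole.

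*CISH* (ENSG00000114737, chromosome 3, 50606489 to 50611774, minus strand of GRCh38, 3 exons) encodes CIS, which competes with STAT5 for docking sites on cytokine receptors. Its level was 23.1 and 27.4 CPM in the control pools and 49.5, 35.6, and 43.0 CPM in the knockout pools. Each knockout pool exceeded both control pools, and knockout pool 2 came closest to them. The difference was 1.69-fold (95% interval 1.04 to 2.73), a log2-fold change of 0.76 with an SE of 0.31 (unadjusted p = 0.0359, adjusted p = 0.181). It did not pass the threshold in the main test or in any of the 14 alternatives, in which the log2-fold change lay between 0.59 and 0.91. *MAPKAPK3* overlaps the *CISH* locus on the opposite strand, with no shared exon bases in the canonical transcripts. It had 350 and 178 counts in control and 571, 511, and 548 in knockout pools (log2-fold change 0.10, adjusted p = 0.895). The use of strand in counting is not stated, and its part in the *CISH* counts was not tested.

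*SOCS1* (ENSG00000185338, chromosome 16, 11254417 to 11256204, minus strand, 2 exons) encodes an inhibitor of JAK1, JAK2, and TYK2 best known from interferon-gamma signaling. Counts were 3 and 0 in control and 20, 6, and 17 in knockout pools, or 0.938 and 0 against 2.59, 1.08, and 2.96 CPM. Both control pools were at or under the floor, and knockout pool 2 was close to it. Over the pooled counts, 3 in control and 43 in knockout, the ratio was 4.95 with an exact counting interval of 1.58 to 24.9, which covers counting error only. The fitted log2-fold change was 2.22 with an SE of 1.0 (adjusted p = 0.220). It was 1.25 without control pool 2, the pool with no count. *SOCS1* lies within a locus that *RMI2* overlaps on the opposite strand, with no shared exon bases in the canonical transcripts. *RMI2* had 17 and 2 counts in control and 52, 39, and 40 in knockout pools (log2-fold change 1.23, adjusted p = 0.312), and because the use of strand in counting is not stated, its part in the *SOCS1* counts was not tested.

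*SOCS2* (ENSG00000120833, chromosome 12, 93569814 to 93583487, plus strand, 2 exons in the canonical transcript) is best known as a brake on growth hormone signaling and is a STAT5 target. Its level was 32.2 and 38.1 CPM in the control pools and 26.6, 22.0, and 20.4 CPM in the knockout pools. Each knockout pool was thus lower than either control pool, and knockout pool 1 came closest to them. The log2-fold change was −0.61 with an SE of 0.30 (95% interval −1.28 to 0.06, unadjusted p = 0.0687, adjusted p = 0.255). *CISH* and *SOCS2*, although both are induced through STAT5, thus had fold changes of opposite sign, of which neither passed the test. The antisense *SOCS2-AS1*, with 3 to 12 counts per library, had a log2-fold change of −0.82 (adjusted p = 0.557).

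*SOCS3* (ENSG00000184557, chromosome 17, 78356778 to 78360077, minus strand, 2 exons) encodes the inhibitor of the gp130, leptin, and G-CSF receptors. With counts of 6 and 0 in control and 9, 7, and 1 in knockout pools, it was removed by the filter, and was not tested. The groups overlapped, and the highest CPM, 1.88, was that of control pool 1. Over the pooled counts the ratio of knockout to control was 0.978 with an exact counting interval of 0.368 to 3.03, which covers counting error only. Differences within that interval were not detectable at this depth. The spread between pools is not part of it, so that larger differences could go undetected as well. The divergent transcript *SOCS3-DT* had 0 counts in both control pools and 3, 2, and 3 counts in the knockout pools, at or under the floor throughout.

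*SOCS4* (ENSG00000180008, chromosome 14, 55027230 to 55049489, plus strand, 3 exons) and *SOCS5* (ENSG00000171150, chromosome 2, 46698952 to 46780245, plus strand, 2 exons) encode closely related proteins that have been linked to degradation of the EGF receptor. *SOCS4* was at 27.2 and 17.0 CPM in the control pools and at 21.9, 22.9, and 17.4 CPM in the knockout pools. All knockout values lay between the 2 control values, the log2-fold change was −0.09 with a 95% interval from −0.85 to 0.68 (adjusted p = 0.907), and its sign depended on the setting. *SOCS5* was at 10.3 and 9.83 CPM in the control pools and at 9.47, 8.49, and 4.35 CPM in the knockout pools. Its log2-fold change of −0.43 (95% interval −1.40 to 0.54, adjusted p = 0.594) rested on knockout pool 3, without which it was −0.13.

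*SOCS6* (ENSG00000170677, chromosome 18, 70289045 to 70330199, plus strand, 2 exons) encodes a protein that binds the receptor tyrosine kinases KIT and FLT3 in hematopoietic cells. Its level was 25.01 and 20.9 CPM in the control pools and 10.8, 14.3, and 12.5 CPM in the knockout pools. The knockout pools clustered closely and were separated from both control pools. The knockout level was 0.545 of the control level (95% interval 0.330 to 0.901), a log2-fold change of −0.87 with an SE of 0.32 (unadjusted p = 0.0229, adjusted p = 0.144). *KIT* itself, the receptor for stem cell factor, was at 44.7 and 41.7 CPM in control and at 49.8, 69.3, and 93.3 CPM in knockout pools (log2-fold change 0.71, adjusted p = 0.247).

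*SOCS7* (ENSG00000274211, chromosome 17, 38351844 to 38405593, plus strand, 10 exons) encodes the member that binds the adaptor NCK and has been studied in insulin signaling. Its level was 9.38 and 12.2 CPM in the control pools and 21.9, 24.9, and 28.7 CPM in the knockout pools. Every knockout pool was above both control pools, and the range within either group was narrower than the gap between them. The difference was 2.33-fold (95% interval 1.36 to 3.96), a log2-fold change of 1.22 with an SE of 0.34 (unadjusted p = 0.00561, adjusted p = 0.0717). It missed the threshold in the main test. It passed with DESeq2 (log2-fold change 1.2, adjusted p = 0.0407), with no filter on low counts (1.37, adjusted p = 0.0406), and with offsets for GC content and length (1.31, adjusted p = 0.0385), the last of these chosen after seeing the data. Over all 14 alternatives its log2-fold change lay between 1.05 and 1.45 and its adjusted p between 0.0385 and 0.229.

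**Figure D2:**
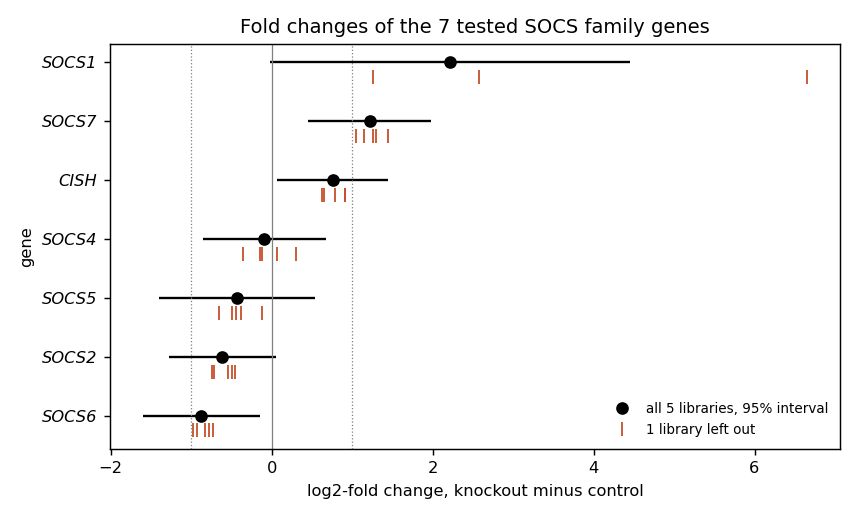
log2-fold change of knockout against control (horizontal axis) for the 7 tested SOCS family genes, with 95% intervals from the edgeR fit over all 5 libraries (black) and the fold changes with each library left out in turn (red ticks), and dotted lines at −1 and 1. The intervals of *SOCS7*, *CISH*, and *SOCS6* do not reach 0, no adjusted p passed the threshold, and the tick of *SOCS1* at 6.66 is the fit without control pool 1, in which the remaining control pool has no count and the value depends on the prior count.

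The family's summed level was 130 and 125 CPM in control and 144, 131, and 129 CPM in knockout pools, with means of 128 and 135 CPM, and the groups overlapped. The make-up of that sum differed more than its size. Shares of the family's counts do not depend on the normalization between libraries, and their 95% Wilson intervals cover counting error only. *CISH* took 17.8% (14.4 to 21.8) and 21.9% (18.2 to 26.0) in the control pools and 34.4% (31.7 to 37.3), 27.2% (24.1 to 30.6), and 33.2% (29.9 to 36.7) in the knockout pools. *SOCS7* took 7.21% and 9.74% in control and 15.2%, 19.1%, and 22.2% in knockout pools. *SOCS6* took 19.2% and 16.6% in control and 7.48%, 10.9%, and 9.68% in knockout pools. *SOCS2* took 24.8% and 30.4% in control and 18.5%, 16.9%, and 15.7% in knockout pools. *SOCS5* took 7.93% and 7.84% in control and 6.58%, 6.50%, and 3.36% in knockout pools. *SOCS1* took 2.28% or less in every library, with each knockout pool above both control pools. The groups thus did not overlap in the shares of 6 members, those whose CPM did not overlap either, beside 22.2% of all tested genes with every knockout pool above and 19.2% with every knockout pool below both control pools in CPM. For *SOCS3* and *SOCS4* the shares overlapped.

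**Figure D3:**
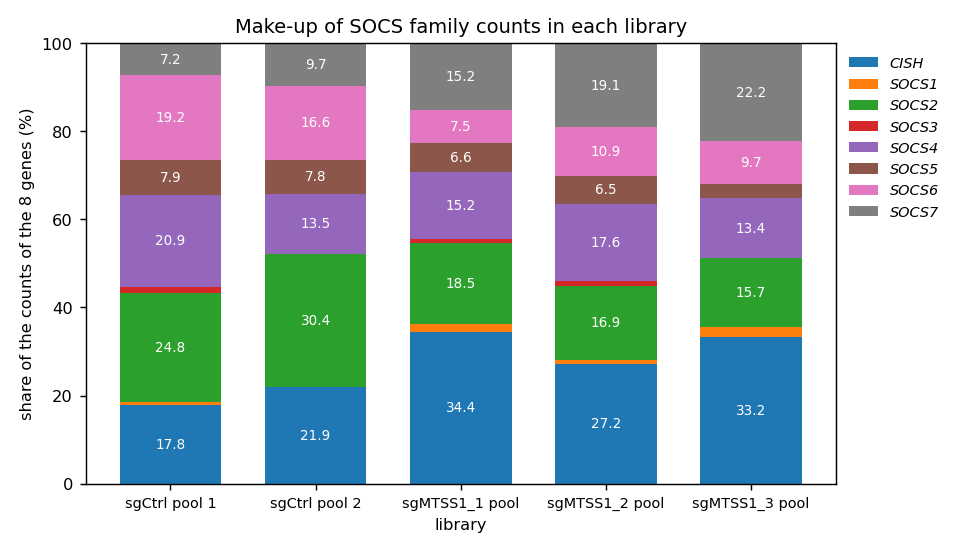
Share of the summed counts of the 8 SOCS family genes taken by each gene (vertical axis, percent) in each of the 5 libraries. The *CISH* and *SOCS7* segments are larger in the 3 sgMTSS1 pools, and the *SOCS2* and *SOCS6* segments are larger in the 2 sgCtrl pools.

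Ratios between members of 1 library show the same pattern without any scaling. The pairs were picked after their values were seen, so that no p-value is given for them. The ratio of *CISH* to *SOCS2* counts was 0.718 and 0.719 in control and 1.86, 1.61, and 2.11 in knockout pools. It thus lay below 1 in both control pools and above 1 in all knockout pools. The ratio of *SOCS7* to *SOCS6*, a closely related pair, was 0.375 and 0.586 in control and 2.04, 1.75, and 2.29 in knockout pools. The ratio of *SOCS4* to *SOCS5*, by contrast, was 2.64 and 1.73 in control and 2.32, 2.70, and 4.00 in knockout pools, with overlapping groups.

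**Figure D4:**
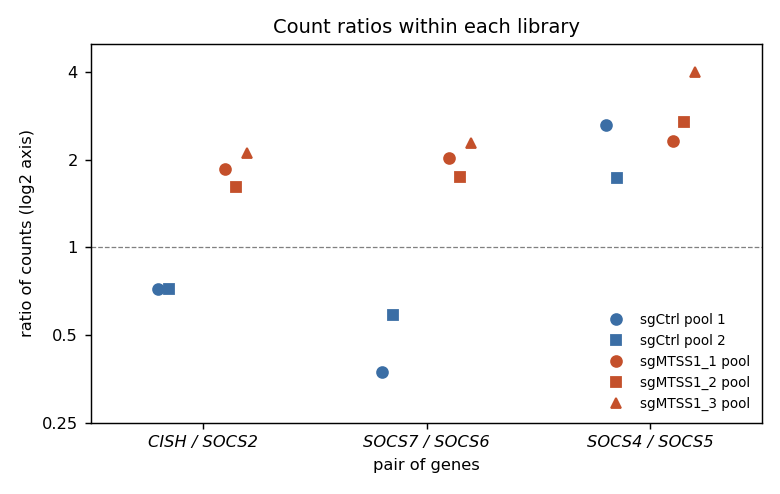
Ratio of the counts of a pair of SOCS family genes within each library (vertical axis, log2 scale) for *CISH* to *SOCS2*, *SOCS7* to *SOCS6*, and *SOCS4* to *SOCS5*, in the 2 sgCtrl pools (blue) and the 3 sgMTSS1 pools (red). The first ratio and the ratio of *SOCS7* to *SOCS6* are below the dashed line at 1 in both control pools and above it in all knockout pools, and for *SOCS4* to *SOCS5* the groups overlap.

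The members differ in base composition. The GC content of the canonical transcript in GENCODE 44 was 66.2% for *SOCS1*, 58.6% for *CISH*, and 53.5% for *SOCS7*, the 3 members with higher levels in knockout. It was 41.8% for *SOCS2*, 37.6% for *SOCS5*, 37.0% for *SOCS6*, and 35.4% for *SOCS4*, which had log2-fold changes below 0, and 60.0% for *SOCS3*, which was not tested and had a pooled ratio of 0.978. These values divide the tested members, but *SOCS1* passed the filter through its knockout counts, *SOCS4* changed sign with the setting, and *SOCS3* does not follow the division, so that they are given as a description. Across all tested genes the median log2-fold change was −0.03 in the lowest, −0.0016 in the middle, and −0.07 in the highest tertile of GC content. With offsets for GC content and length fitted in each library, the log2-fold change was 2.13 for *SOCS1*, 1.31 for *SOCS7*, 0.59 for *CISH*, 0.033 for *SOCS4*, −0.48 for *SOCS5*, −0.75 for *SOCS2*, and −0.83 for *SOCS6*, so that *SOCS4* changed its sign. The part of GC content in these values was not tested further.

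AU-rich pentamers, ATTTA read on the mRNA strand, occur in the 3′ UTRs of short-lived mRNAs and were counted in the canonical transcripts. *SOCS6* had 16, or 4.08 per kb, which put it at the 85.2th percentile of 14768 genes, whose median was 1.66 per kb. *SOCS5* had 10 (3.35 per kb), *SOCS2* had 5 (3.19), *SOCS4* had 14 (2.73), *CISH* had 3 (2.68), *SOCS3* had 4 (2.44), *SOCS7* had 9 (1.47), and *SOCS1* had 0. The density was thus higher in the 3 members whose knockout pools all lay below the control pools than in *CISH*, *SOCS7*, and *SOCS1*, whose knockout pools all lay above them. *SOCS4*, whose groups overlapped, had a density close to that of *CISH*. *SOCS1* passed the filter through its knockout counts. ATTTA holds no G or C, so that this division is not independent of that by GC content. A pentamer count is a description of the sequence, mRNA decay was not measured, and over so few genes no test was made.

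The genes whose profile over the 5 libraries came closest to that of a member were found by the root mean square difference of centred log2 CPM among 8624 tested genes with a mean of at least 10 CPM. For *CISH* these were *BEX4* (0.02) and *RPL7* (0.07), a ribosomal protein gene. Ribosomal protein genes took 7.55% and 9.30% of counts in control and 17.7%, 11.9%, and 13.9% in knockout pools, the order in which *CISH* levels also stood. Library totals stood in that order too. With libraries thinned to the smallest total, the log2-fold change of *CISH* was 0.65. The part of ribosomal share or depth in the *CISH* values was not tested further. For *SOCS2* they were *VRK2* (0.02) and *PGBD1* (0.02), and for *SOCS6* they were *MAK* (0.03) and *ARHGAP35* (0.04). *SOCS7* was most like *PSAP* (0.08) and *ADRM1* (0.09), *SOCS4* most like *SMC4* (0.04) and *FAM107B* (0.06), and *SOCS5* most like *NXPE3* (0.09) and *TBC1D31* (0.12). *SOCS1*, with its low counts, had no close match, since *TBC1D7* and *PSMB4* stood at 0.26 and 0.28. With 5 libraries such likeness is a description of these profiles.

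None of the genes on the route from the GM-CSF receptor to STAT5 was called. Of 17 tested cytokine receptor chains, 0 were called higher and 1 lower, with a median log2-fold change of −0.01 against −0.03 for all tested genes and of 0.03 to 0.23 with a library left out. The GM-CSF receptor's alpha chain *CSF2RA* was at 5.97 CPM in control and 5.89 CPM in knockout (adjusted p = 0.989). Its shared beta chain *CSF2RB* was at 16.5 and 22.2 CPM (log2-fold change 0.43, adjusted p = 0.471), with every knockout pool above both control pools. Of 4 tested JAK kinases and 6 tested STAT factors 0 were called, with medians of −0.25 and −0.18. With a library left out the JAK median lay between −0.46 and −0.09, and the STAT median was −0.44 without control pool 1 and 0.095 without control pool 2. *JAK2*, the kinase bound to CSF2RB, had a log2-fold change of −0.14 (adjusted p = 0.822), *STAT5A* of 0.21 (adjusted p = 0.796), and *STAT5B* of −0.70 (adjusted p = 0.254). The *STAT5A* value rested on control pool 1, without which it was −0.31, whereas without control pool 2 it was 1.09. *STAT5B* stood at −0.38 without control pool 2.

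The partners with which SOCS proteins form a ubiquitin ligase were not called either, with 0 of 9 tested genes and a median of 0.09, which was −0.12 without knockout pool 1 and 0.36 without control pool 1. Elongin B (*ELOB*), which binds the SOCS box, was at 119 and 107 CPM in the control pools and at 300, 159, and 155 CPM in the knockout pools (log2-fold change 0.86, adjusted p = 0.199), and without knockout pool 1 its log2-fold change was 0.47. The levels of elongin C (*ELOC*), *CUL5*, and the RING protein *RNF7* differed by −0.25, −0.17, and 0.26 on the log2 scale, with adjusted p of 0.777, 0.789, and 0.642. Other proteins with a SOCS box and inhibitors of the pathway from other families, phosphatases and PIAS proteins among them, gave 0 calls in 14 and 12 tested genes, with medians of 0.08 and −0.02. The former was −0.27 with at least 10 counts required in every library, and the latter was 0.36 without control pool 1. Of 3 tested receptor tyrosine kinases and 4 tested interferon-gamma target genes 0 were called, with medians of 0.23 and 0.83. The former was 0.655 without control pool 1 and −0.059 without control pool 2, and the latter was 1.22 without control pool 2.

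STAT5 target genes outside the family held 4 of the 5 calls in these lists. Of 11 tested, 4 were called higher and 0 lower, against 4.17% and 1.01% of all tested genes. The median log2-fold change was 1.09, and 0.55 without knockout pool 1. The list was drawn up with earlier results of these data known, so that its count supports no statement on STAT5. The 4 were the survival kinases *PIM1* (36.7 CPM in control and 141 CPM in knockout), *PIM2* (68.5 and 726), and *PIM3* (17.1 and 234) and the BCL2 family member *MCL1* (51.0 and 157), with log2-fold changes of 1.94, 3.41, 3.77, and 1.62. Other genes of the list had values of the opposite sign, *MYC* −1.01 (adjusted p = 0.0847) and *BCL2L1* −1.56 (adjusted p = 0.109). The groups overlapped for *BCL2L1*, at 74.7 and 299 CPM in control and 42.4, 82.1, and 65.8 CPM in knockout pools, and its value leaned on control pool 2. *CISH* and *SOCS1* had log2-fold changes of the sign of the PIM genes without passing the test, and *SOCS2* had one of the opposite sign. The 1 called receptor chain was *IL10RB*, a shared chain of interleukin-10 and type III interferon receptors. It was at 5.62 CPM in control and 0.826 CPM in knockout (log2-fold change −2.77, adjusted p = 0.0294). Its counts were 15 and 22 in control and 4, 7, and 4 in knockout pools. *IL10RB* thus passed the filter through its control counts, with knockout pools 1 and 3 close to the floor, and its call is given as a description.

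**Figure D5:**
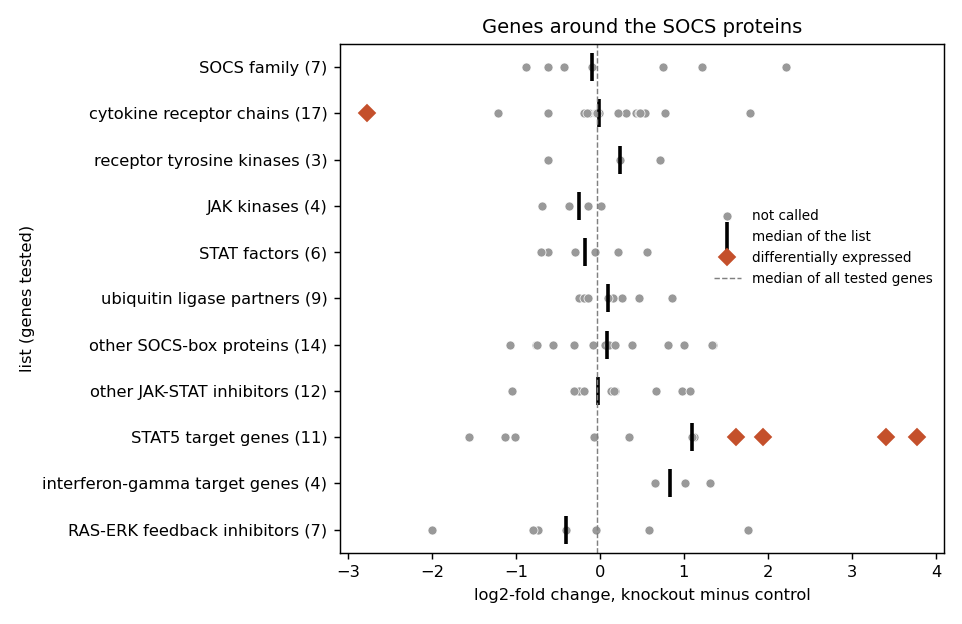
log2-fold change of knockout against control (horizontal axis) for each tested gene of the SOCS family and of 10 lists of genes around it, with the number tested in brackets. Gray points were not called, red diamonds were differentially expressed, black bars are list medians, and the dashed line is the median of all tested genes, −0.03. Calls appear for 4 STAT5 target genes and 1 cytokine receptor chain and for none of the 7 SOCS family genes.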

How the data were processed

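RNA-seq was performed by the authors with a QuantSeq 3′ kit. Reads were trimmed, aligned to GRCh38 with HISAT2 v2.1.0, and filtered for unique mapping with SAMtools v1.10, and the authors deposited raw counts per Ensembl gene without normalization. Removing multi-mapped reads lowers counts of genes with near-identical copies. The counting program, its use of strand, and the handling of PCR duplicates are not given in the sources used here. Pools were grouped by their sample titles.

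Counts were tested here in R v4.3.3 with edgeR v4.0.16 (filterByExpr with a minimum count of 10, TMM, quasi-likelihood test with condition alone, Benjamini-Hochberg adjustment over 14391 genes). The tables hold 5 libraries of 2849979 to 8854899 counts. The common biological coefficient of variation was 32.2%, which sets the precision together with the low counts of some members. The scripts were tested on simulated data. Gene positions and transcripts came from GENCODE 44, promoters from RefSeq. Alternatives were DESeq2 v1.42.0, limma-voom (limma v3.58.1), other normalizations and filters, thinning, a replicate block, each library left out, and, chosen after seeing the data, offsets for GC content and length (mgcv v1.9.3). P-values measure the spread between pools of clones. Among knockout pools this spread includes the difference in sgRNA. Nothing says whether the control pools came from separate transductions.

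The members, gene lists, and tests were chosen with earlier results of these data known. Named were all members, *MTSS1*, the genes from the GM-CSF receptor to STAT5 and of the ligase core, every called gene of the lists, markers, and the 2 genes most like each tested member. *KIT*, *RPL7*, *RMI2*, *SOCS2-AS1*, *SOCS3-DT*, *MAPKAPK3*, *MYC*, *BCL2L1*, *JAK1*, *TYK2*, *IFNGR1*, *IFNGR2*, *IFNAR1*, *IFNAR2*, and the genes of the RAS-ERK list were added after their values were seen where they fall outside this rule.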

Additional observations from a re-analysis of the deposited data

How the results depend on the processing

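The members called numbered 0 in the main test and 1, *SOCS7* each time, with DESeq2, with no filter on low counts, and with offsets for GC content and length, the last chosen after seeing the data; no member was called with any library left out. *CISH*, *SOCS1*, *SOCS2*, *SOCS5*, *SOCS6*, and *SOCS7* kept their sign in every alternative that gave a value. The log2-fold change of *SOCS4* turned above 0 with thinned libraries (0.00051), no filter (0.059), GC and length offsets (0.033), and the replicate block (0.054), and lay between −0.36 and 0.30 with each library left out. Signs also turned for *CSF2RA* (0.062 with at least 10 counts in every library, 0.13 with no filter, −0.13 to 0.15 with a library left out) and *JAK2* (0.012 with no filter, −0.24 to 0.017 with a library left out). With a library left out the ranges were −0.44 to 0.22 for *CUL5*, −0.82 to 0.066 for *ELOC*, −1.04 to 0.16 for *MTSS1*, and −0.31 to 1.09 for *STAT5A*. Differentially expressed genes numbered 745 in the main test, 1357 with DESeq2, 1374 with no filter, and 111 to 1349 with a library left out: 1349 without control pool 1, and 111, 347, and 191 without knockout pools 1, 2, and 3. Genes called in the lists numbered 5 in the main test, 9 with DESeq2, and 2 to 10 with a library left out. *PIM1* lost its call with the GC and length offsets (adjusted p = 0.0508) and without control pool 2 (0.0736), knockout pool 1 (0.101), or knockout pool 3 (0.0702), *IL10RB* lost it with thinned libraries (0.0893) and without control pool 2 (0.104), knockout pool 1 (0.0991), or knockout pool 3 (0.0984), and *MCL1* lost it without knockout pool 1 (0.0683) or 3 (0.0813). *PIM2* and *PIM3* kept theirs in all 14. The GC and length offsets split the calls into 589 higher and 362 lower, against 600 and 145. Without TMM, on library totals alone, the median tested gene stood at −0.17 instead of −0.03. The causes were not tested.

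Pool numbers 1 and 2 occur in both groups, but nothing states a shared origin, and deviations of same-numbered pools correlated at 0.17. A fit with the replicate block called 0 members and 1094 genes, and gave *SOCS7* a log2-fold change of 1.12 (adjusted p = 0.158). Low counts limit *SOCS1* and *SOCS3* most. Only with no filter and without control pool 2 could *SOCS3* be fitted, and *SOCS1* could not be fitted in every alternative.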

Other observations

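RAS-ERK feedback inhibitors, which restrain the other main branch of GM-CSF and KIT signaling, showed mixed values as well. Of 7 tested, 0 were called, with a median log2-fold change of −0.41 against −0.03 for all tested genes. The median was 0.11 without control pool 2 and 0.10 with no filter on low counts, so that its sign depended on the setting. *DUSP6*, a phosphatase that inactivates ERK and is induced by it, was at 4.69 and 4.77 CPM in the control pools and at 23.0, 6.32, and 18.8 CPM in knockout pools 1, 2, and 3 (log2-fold change 1.76, adjusted p = 0.105). The 3 SPRED genes, which encode membrane proteins that hold RAS in check through neurofibromin, had log2-fold changes of −0.74 (*SPRED1*), −0.80 (*SPRED2*), and −2.00 (*SPRED3*), with adjusted p of 0.214, 0.272, and 0.0967. Every knockout pool lay below both control pools for each of them, as for 19.2% of all tested genes. *SPRED3* was at 2.501 and 9.54 CPM in the control pools and at 1.17, 1.62, and 1.74 CPM in the knockout pools. Its value thus leaned on control pool 2, since control pool 1 was closer to the knockout pools. *DUSP6* and *SOCS1* had their lowest knockout level in the same pool, knockout pool 2. This was not particular to the pair, since *CISH*, *PIM1*, *PIM2*, and *MCL1* had theirs there too. *PIM3* and *SOCS7* had theirs in knockout pool 1.

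Among the receptors that SOCS1 acts on, *IFNGR2*, a chain of the interferon-gamma receptor, was at 15.0 and 5.07 CPM in the control pools and at 36.6, 28.9, and 38.1 CPM in the knockout pools (log2-fold change 1.78, adjusted p = 0.0539). The interferon receptor chains *IFNGR1*, *IFNAR1*, and *IFNAR2* had log2-fold changes of 0.47, 0.77, and −0.15. Their adjusted p were 0.592, 0.149, and 0.875. Of the kinases that SOCS1 inhibits, *JAK1* was at 256 and 186 CPM in the control pools. In the knockout pools it was at 119, 159, and 132 CPM (log2-fold change −0.69, adjusted p = 0.20). *JAK2* and *TYK2* had log2-fold changes of −0.14 and 0.01, with overlapping groups. None of these genes passed the threshold.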
